A study of Mus musculus with 23 samples.

Results

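Transcripts of the red cell lineage were followed in whole liver of mice that had inhaled particles: the globin genes Hba-a1 and Hbb-b2, the haem synthesis gene Alas2 and the red cell membrane gene Epb42. The members were the features listed under these symbols, which were 1 feature per gene (4 of 18688 features with a listed gene), with listed accessions NM_008218, NM_016956, NM_009653 and NM_013513. Liver RNA of 8 CB mice, 7 DEP mice and 8 air mice was measured, 1 array per mouse. The CB mice had inhaled carbon black (printex), the DEP mice a standard reference diesel exhaust particle, each at 20 mg/m3 for 90 min on 4 days, and the air mice had breathed filtered air in the same way. All were female C57BL/6 mice, labelled as 12 to 13 weeks old and as killed 90 min after exposure. No mouse carried an engineered allele. Each array held liver RNA in Cy5 beside a purchased universal mouse reference RNA in Cy3, which was the same material on every array, and the dyes were not exchanged. By the methods, heart blood was collected ahead of the lung lavage, and neither its order relative to taking the liver nor a wash of the liver is described in the sources used here. Mice were compared over 3 contrasts: CB minus air, DEP minus air and CB minus DEP.

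Haemoglobin is a tetramer of alpha and beta chains, each holding a haem, and its mRNAs are among the most abundant of reticulocytes, the young red cells that still carry RNA. In erythroid precursors ALAS2 performs the first step of haem synthesis, while other tissues, the liver among them, use ALAS1. Protein 4.2, encoded by Epb42, ties the band 3 anion exchanger to the membrane skeleton. The adult mouse makes red cells mainly in bone marrow and spleen, and the macrophages of liver and spleen remove old ones, so that such mRNAs in liver can come from blood held in the organ or from erythroid cells lodged in it.

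By RefSeq annotation of GRCm38.p6, Hba-a1 lies at chr11:32283672-32284486, Alas2 at chrX:150547417-150570622 and Epb42 at chr2:121017891-121036877. The build used to design the array probes is not given in the sources used here. Hba-a1 has a near-identical copy, Hba-a2, at chr11:32296492-32297310, so the Hba-a1 feature may read both. The adult beta-globin genes of this assembly are Hbb-bs at chr7:103826523-103827928 and Hbb-bt at chr7:103812524-103813923, and Hbb-b2 is the name of a gene of another strain haplotype, so the Hbb-b2 feature may read either gene. The 250 bases before the start of transcription are shown for the 3 members with an entry in the RefSeq table, because erythroid genes are known for pairs of GATA and CACCC elements there, which GATA1 and KLF1 bind. Capitals mark 4 motifs, searched on both strands: the GATA motif (letters GATAA, read as TTATC when reversed), the CACCC box (CACCC, read as GGGTG when reversed), the CCAAT box (CCAAT, read as ATTGG when reversed) and the TATA box (TATAA, read as TTATA when reversed). Neighbouring matches run together in capitals.
Hba-a1, chr11:32283422-32283671, plus strand: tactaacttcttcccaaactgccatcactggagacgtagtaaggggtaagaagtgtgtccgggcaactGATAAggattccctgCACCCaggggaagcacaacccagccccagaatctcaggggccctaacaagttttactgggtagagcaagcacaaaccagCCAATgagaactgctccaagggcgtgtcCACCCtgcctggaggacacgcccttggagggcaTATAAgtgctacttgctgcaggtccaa
Alas2, chrX:150547167-150547416, plus strand: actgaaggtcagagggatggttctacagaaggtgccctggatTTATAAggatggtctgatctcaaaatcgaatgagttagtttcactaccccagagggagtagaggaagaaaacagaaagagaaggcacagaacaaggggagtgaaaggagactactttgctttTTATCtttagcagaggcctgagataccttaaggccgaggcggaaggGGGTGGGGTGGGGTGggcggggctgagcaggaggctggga
Epb42, chr2:121036878-121037127, minus strand: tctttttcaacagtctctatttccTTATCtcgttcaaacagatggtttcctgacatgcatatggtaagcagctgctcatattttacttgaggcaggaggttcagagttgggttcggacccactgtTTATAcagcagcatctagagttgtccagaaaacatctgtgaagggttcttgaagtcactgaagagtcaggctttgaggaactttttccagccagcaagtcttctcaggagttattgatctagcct
GATAA was found in all 3, beginning 182 bases before the start in Hba-a1, and reversed at 86 bases in Alas2 and at 226 bases in Epb42. Over all 32851 RefSeq promoters, 22.6% held GATAA in a window of this length. CACCC was found at 167 and 60 bases in Hba-a1 and reversed at 40, 35 and 30 bases in Alas2, was not found in Epb42, and was held by 52.0% of all promoters. Hba-a1 alone had CCAAT (88 bases before the start, 33.8% of all promoters). TATAA stood 27 bases before the start of Hba-a1, and was also matched in both orientations, overlapping, at 208 and 207 bases in Alas2 and reversed at 125 bases in Epb42 (22.8% of all promoters). These matches describe the letters only.

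The median Cy5 signal of an array over the listed features was 268 to 549 in CB mice, 312 to 511 in DEP mice and 262 to 542 in air mice. The deposited flags marked 20.5% to 40.0% of these features as absent in Cy5 in CB mice, 19.2% to 37.4% in DEP mice and 13.8% to 41.9% in air mice. The scanner's limit of 65535 was reached in Cy5 by 72 to 291 features per array in CB mice, 61 to 422 in DEP mice and 59 to 271 in air mice, and by 30 features on all 23 arrays. Of the hepatocyte markers, Alb, Apoa2 and Fgb were at the limit on every array, and the other 6 of 9 measured were present on all arrays. Mice came from 3 exposure rounds that held 1, 6 and 1 CB mice, 1, 2 and 4 DEP mice and 2, 4 and 2 air mice. Precision is limited by how few arrays there were in each group.

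Hba-a1, the alpha chain of adult haemoglobin, was at the scanner's limit in Cy5 on every one of the 23 arrays, so its level in liver has only a lower bound and no fold change between groups is given. The log2 ratios of liver to reference were 2.25 to 3.06 in CB mice (median 2.92), 2.25 to 3.16 in DEP mice (median 2.86) and 2.77 to 4.195 in air mice (median 3.22), each of them a lower bound. The Cy5 limit stood at 119 to 245 times the array median in CB mice, 128 to 210 times in DEP mice and 121 to 250 times in air mice. Every mouse of each group therefore had abundant alpha-globin mRNA in its liver RNA, and the arrays could not order the groups.

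With Cy5 fixed at the limit, a ratio of Hba-a1 can move only with Cy3 and with the normalization, so the Cy3 signal was compared on its own, a comparison chosen after the data were seen. Cy3 was 4300 to 9677 in CB mice (median 7496), 5705 to 7302 in DEP mice (median 6283) and 3495 to 6712 in air mice (median 4937). The particle groups lay toward the upper end, and the groups overlapped. On the log2 scale, relative to the median of each array, the Cy3 signal of Hba-a1 was 0.75 higher in CB than in air mice (standard error 0.19, 95% confidence interval 0.37 to 1.14) and 0.60 higher in DEP than in air mice (standard error 0.19, interval 0.20 to 1.00). By limma over all features, unadjusted p was 0.000468 for CB and 0.00464 for DEP, and adjusted p was 0.822 and 1.00. No feature passed in Cy3 in any comparison (0% of 18688). CB minus DEP was 0.15 (interval -0.24 to 0.55, adjusted p = 1.00 from limma).

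The Cy3 difference was not particular to alpha-globin. All 29 other features at the Cy5 limit on every array were also above 0 in Cy3 in CB minus air (median 0.57, range 0.11 to 1.21) and in DEP minus air (median 0.39, range 0.13 to 1.05), and 9 of them exceeded Hba-a1 in each. Over all features the median Cy3 difference was 0.01 in both comparisons, but scaling each array to its own median holds this value near 0. It is therefore no background for bright spots, and bright features that were not always saturated were not set beside these. Within the second round the Hba-a1 difference was 0.37 for CB and 0.31 for DEP. Within the last round, which held 1 CB mouse and 2 air mice, it was 1.82 and 1.19. As the reference RNA was one material, these values stand in the channel that holds no liver RNA, and the part of a scanner, dye or spot effect in them was not tested.

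**Figure D1:**
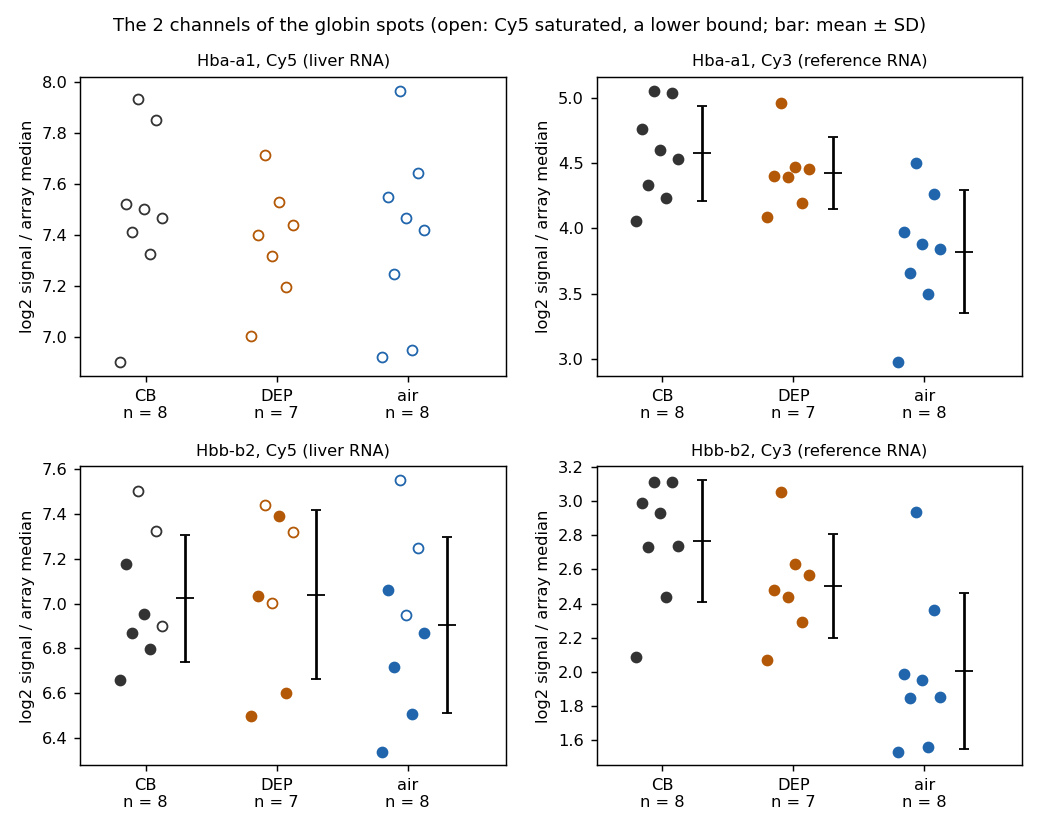
Log2 Cy5 (left) and Cy3 (right) signal of the Hba-a1 (top) and Hbb-b2 (bottom) features relative to the array median, with 1 point per mouse in CB (n = 8), DEP (n = 7) and air (n = 8) mice. Open points are saturated Cy5 spots, which are lower bounds, and bars give the mean and SD. In Cy3 the particle groups lie above most air mice, while the Cy5 points of Hbb-b2 overlap throughout.

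Hbb-b2, the beta chain, was bright in every liver, and its ratio to the reference was lower in the particle groups by an amount that did not pass the test. Log2 ratios in CB mice were 3.65 to 5.13 with a median of 4.26, those in DEP mice 4.05 to 5.07 with a median of 4.51, and those in air mice 4.23 to 5.33 with a median of 4.80. Of the 8 CB mice, 3 lay below the lowest air mouse, and the highest CB mouse (mouse 445, 5.13) lay above all air mice except 1. The groups overlapped, as they did for every member, and non-overlap was seen for 0.0589% of all features between CB and air, 0.0107% between DEP and air and 0.0268% between CB and DEP. Means were 4.29 ± 0.44 in CB mice (SD, n = 8), 4.47 ± 0.34 in DEP mice (SD, n = 7) and 4.78 ± 0.36 in air mice (SD, n = 8). CB minus air was -0.50 on the log2 scale (standard error 0.18, 95% interval -0.87 to -0.13), 0.709 of the air level. Its unadjusted p was 0.0108 and its adjusted p 0.788 by limma. DEP minus air was -0.31 (standard error 0.19, interval -0.69 to 0.07, adjusted p = 0.997 by limma), and CB minus DEP was -0.18 (interval -0.57 to 0.20, adjusted p = 1.00).

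No feature of the array passed an adjusted p of 0.05 in CB minus air, DEP minus air or CB minus DEP (0% of 18688 in each), so 0 of the 3 members with a usable ratio were called against a background of 0%. At an unadjusted p under 0.05, 5.94% of features passed in CB minus air (3.39% of all features as lower), 4.82% in DEP minus air (2.53% as lower) and 3.44% in CB minus DEP (1.77% as lower). Hbb-b2 in CB minus air was the only 1 of the 9 member contrasts under that level. In bulk liver, a change in the number of blood or erythroid cells cannot be told apart from one in globin mRNA per cell. The Hbb-b2 ratio also holds the Cy3 signal, which on the log2 scale was higher after CB (0.76) and DEP (0.50). Its Cy5 signal, capped on 9 arrays, gave 0.12 and 0.14.

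The Hbb-b2 spot was saturated in Cy5 on 9 arrays, 3 in each group: CB mice 58, 59 and 835052, DEP mice 51, 56 and 835434, and air mice 49, 50 and 835432. Ratios on the saturated arrays, which are lower bounds, were 4.29 to 4.51 in CB mice, 4.11 to 4.51 in DEP mice and 4.40 to 5.10 in air mice. On the unsaturated arrays they were 3.65 to 5.13 in 5 CB mice, 4.05 to 5.07 in 4 DEP mice and 4.23 to 5.33 in 5 air mice. Leaving the saturated spots out gave -0.59 for CB minus air (adjusted p = 0.851) and -0.23 for DEP minus air (adjusted p = 0.998, limma).

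The lower ratio of Hbb-b2 was not seen in the liver channel alone. Its Cy5 signal was 27098 to 65535 in CB mice (median 50706), 32018 to 65535 in DEP mice (median 52322) and 23820 to 65535 in air mice (median 53128). These ranges cover each other. Its Cy3 signal was 1153 to 3068 in CB mice (median 2434), 1275 to 2578 in DEP mice (median 1626) and 687 to 2265 in air mice (median 1330). Relative to the array median, Cy5 alone gave CB minus air 0.12 and DEP minus air 0.14. Of the 23 Cy5 values behind these, 9 were capped and are lower bounds. Cy3 alone gave 0.76 and 0.50, and in neither channel did a value pass (adjusted p of 0.822 to 1.00 by limma). The direction of the beta-globin difference thus depended on the reference channel, where Hba-a1 and the other always saturated features moved alike, and the part of that channel in the ratio was not tested beyond these values.

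The Hbb-b2 difference also depended on the normalization. With each array centred on its median in place of loess, CB minus air was -0.75 (standard error 0.17, adjusted p = 0.0290 by limma), and 285 features passed, so this was the only setting under which Hbb-b2 passed. In mice of the second round alone CB minus air was -0.43 and DEP minus air 0.06. Within the last round, which held 1 CB mouse and 2 air mice, they were -1.02 and -0.37. With the array set as a block CB minus air was -0.65 (adjusted p = 0.304 by limma).

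**Figure D2:**
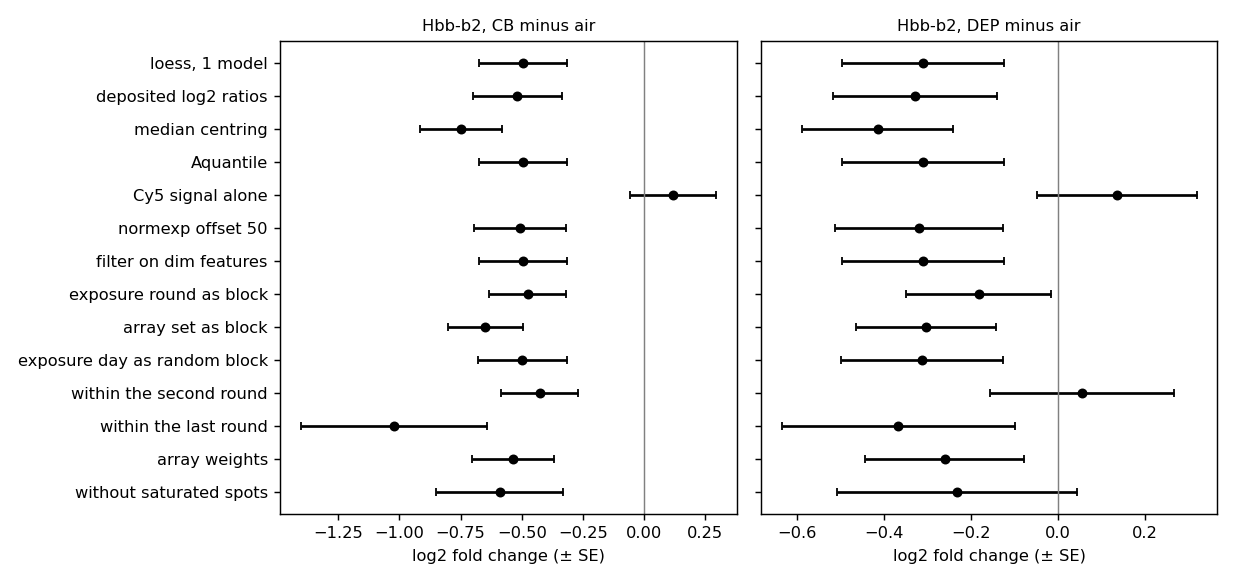
Log2 fold change of Hbb-b2 (horizontal axis, ± standard error) in CB minus air (left, -0.50) and DEP minus air (right, -0.31) under each way of processing the arrays, named on the vertical axis. The values from the Cy5 signal alone (0.12 and 0.14), which was capped on 9 arrays, lie on the other side of 0. The last round held 1 CB mouse.

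Alas2, the erythroid enzyme that starts haem synthesis, was measured on a clean scale: its Cy5 spot was saturated on 0 of 23 arrays and absent on 0 of 23. Its log2 ratio was 1.76 to 2.93 in CB mice (median 2.36), 1.10 to 2.89 in DEP mice (median 2.70) and 1.96 to 3.02 in air mice (median 2.50). Cy5 was 694 to 1638 in CB mice, 352 to 2477 in DEP mice and 643 to 2128 in air mice, at 0.907 to 4.87 times the array median over all mice. The groups overlapped almost wholly, with the lowest value of all in DEP mouse 55. Its Cy3 spot was flagged absent on 5 arrays (1 CB, 2 DEP and 2 air), so the ratios of those mice rest on a dim reference signal.

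Group means of Alas2 were 2.38 ± 0.34 in CB mice (SD, n = 8), 2.28 ± 0.67 in DEP mice (SD, n = 7) and 2.48 ± 0.37 in air mice (SD, n = 8). CB minus air was -0.10 (standard error 0.22, 95% interval -0.55 to 0.35, adjusted p = 0.967 by limma), and DEP minus air was -0.19 (standard error 0.23, interval -0.66 to 0.27, adjusted p = 0.997). The intervals allow levels of 0.683 to 1.27 times air after CB and 0.634 to 1.21 times air after DEP. CB minus DEP was 0.09 (interval -0.37 to 0.56). Without DEP mouse 55, DEP minus air was 0.01 and CB minus DEP was -0.11. The array of this mouse was also the least like the others, with a median correlation with them of 0.906, against 0.918 to 0.948 for the other 22. The 7 DEP mice fell into 4 between 2.70 and 2.89 and 3 at 2.08, 1.73 and 1.10 (mice 835434, 835435 and 55).

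Epb42, which encodes protein 4.2 of the red cell membrane, lay at the floor of the array. Its Cy5 spot was flagged absent on 19 of 23 arrays (7 of 8 CB, 5 of 7 DEP and 7 of 8 air) and its signal was 169 to 252 in CB mice, 172 to 286 in DEP mice and 141 to 240 in air mice, under the array median in every mouse. The 4 present spots were those of CB mouse 59, DEP mice 55 and 835434 and air mouse 835432. Log2 ratios were -0.32 to 0.43 in CB mice (median -0.06), -0.35 to 0.48 in DEP mice (median -0.12) and -0.37 to 0.05 in air mice (median -0.10). CB minus air was 0.12 (standard error 0.12, interval -0.12 to 0.37, adjusted p = 0.917), DEP minus air was 0.08 (interval -0.18 to 0.33, adjusted p = 0.997) and CB minus DEP was 0.04 (interval -0.21 to 0.30, limma throughout). A difference in this gene was not detectable at this signal.

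**Figure D3:**
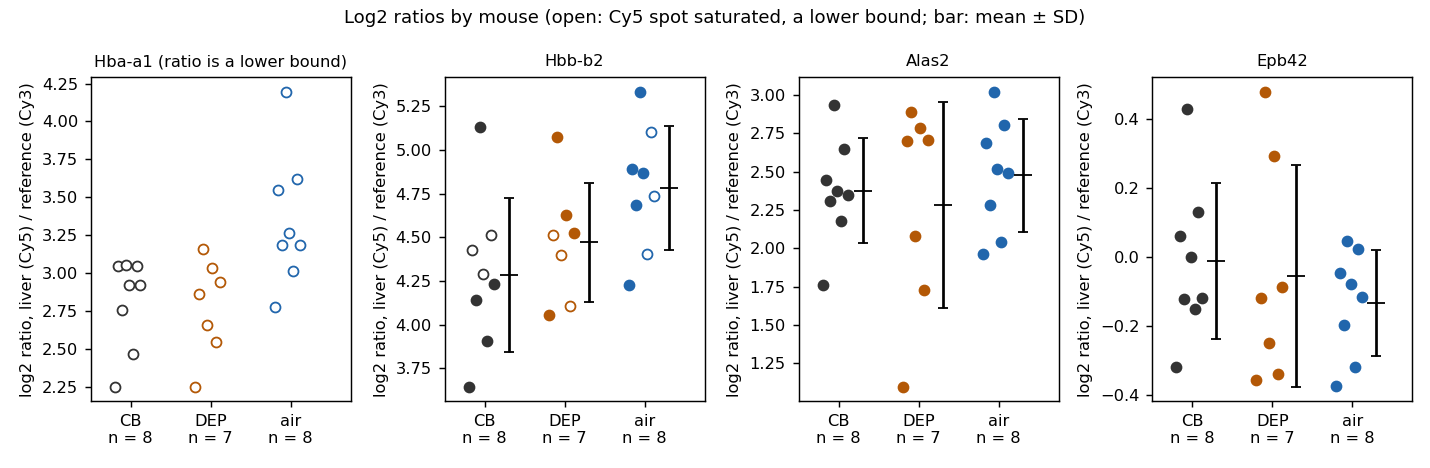
Log2 ratio of liver (Cy5) to reference (Cy3) of the 4 genes, 1 point per mouse, in CB (n = 8), DEP (n = 7) and air (n = 8) mice. Open points are saturated Cy5 spots, which are lower bounds, and bars give the mean and SD where the group is not saturated throughout. The groups overlap for every gene, and DEP mouse 55 (1.10) is the lowest point of Alas2.

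Mice of a group differed in Alas2 and Hbb-b2 more than in most genes. The residual SD of the log2 ratio about the group means was 0.47 for Alas2, above 91.8% of the 13216 features with no saturated spot that were present on at least 50% of arrays, whose median was 0.23. It was 0.38 for Hbb-b2, above 85.5% of them, though capped at the scanner's limit on 9 arrays. For Epb42, absent on most arrays, it was 0.24, close to the median of those features (above 52.5%), and Hba-a1 has no usable SD.

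No pair of the 3 members with a usable ratio passed as varying together from mouse to mouse over all 23 mice. Over all 23 mice the log2 ratios of Hbb-b2 and Alas2 had a Pearson r of 0.16 (permutation p = 0.464, adjusted p = 0.580 over 5 relations) and a Spearman rho of 0.24 (permutation p = 0.275, adjusted 0.392). Within groups r was 0.71 in 8 CB mice (exact permutation p = 0.0566; rho 0.79, exact permutation p = 0.0279, neither adjusted), 0.06 in 7 DEP mice (exact permutation p = 0.880) and -0.42 in 8 air mice (exact permutation p = 0.309). Within the second round it was 0.33 and within the last round 0.33. Over the 14 arrays with an unsaturated Hbb-b2 spot r was 0.24 (permutation p = 0.406), and 0.00 in Cy5 alone. In Cy5 alone over all 23 arrays, capped values included, r was 0.34 (permutation p = 0.114) and rho 0.45 (permutation p = 0.0334, not adjusted). Without the 2 mice farthest from the median of Hbb-b2 it was 0.26. With arrays centred on their medians r was 0.43 (permutation p = 0.0425, not adjusted).

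Hbb-b2 and Epb42 had r of -0.12 (permutation p = 0.587, adjusted 0.587) and rho of -0.19 (permutation p = 0.384, adjusted 0.392). Alas2 and Epb42 had r of -0.32 (permutation p = 0.132, adjusted 0.331) and rho of -0.28 (permutation p = 0.195, adjusted 0.392). In Cy5 alone r of Alas2 with Epb42 was -0.49 (permutation p = 0.0153, not adjusted; rho -0.37, permutation p = 0.0795). It was -0.52 in ratios without CB mouse 445 (permutation p = 0.0140, not adjusted) and -0.16 without DEP mouse 55. Without the 2 mice farthest from the median of the first gene, r was 0.011 for Hbb-b2 with Epb42 and -0.19 for Alas2 with Epb42. In mice of the second round alone the values were -0.20 and -0.39, and in those of the last round -0.34 and -0.44. Within groups, Hbb-b2 with Epb42 had r of 0.43 in CB, -0.07 in DEP and -0.70 in air mice (exact permutation p = 0.0533 in air, not adjusted). Alas2 with Epb42 had 0.28 in CB, -0.68 in DEP and 0.09 in air mice (exact permutation p = 0.0875 in DEP, not adjusted). Epb42, absent on most arrays, brings mostly background signal to both pairs. Alas2 ranked no nearer to Hbb-b2 than an ordinary gene: in residuals from the group means their r was 0.12, and 38.0% of 13215 features had a higher r with Hbb-b2. The bounded ratios of Hba-a1, given with no test, had r of 0.64 with Hbb-b2, -0.05 with Alas2 and -0.34 with Epb42. With Cy5 at the limit on every array, these ratios move only with Cy3 and the normalization. Their r therefore cannot show that Hba-a1 varied with another gene in liver.

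**Figure D4:**
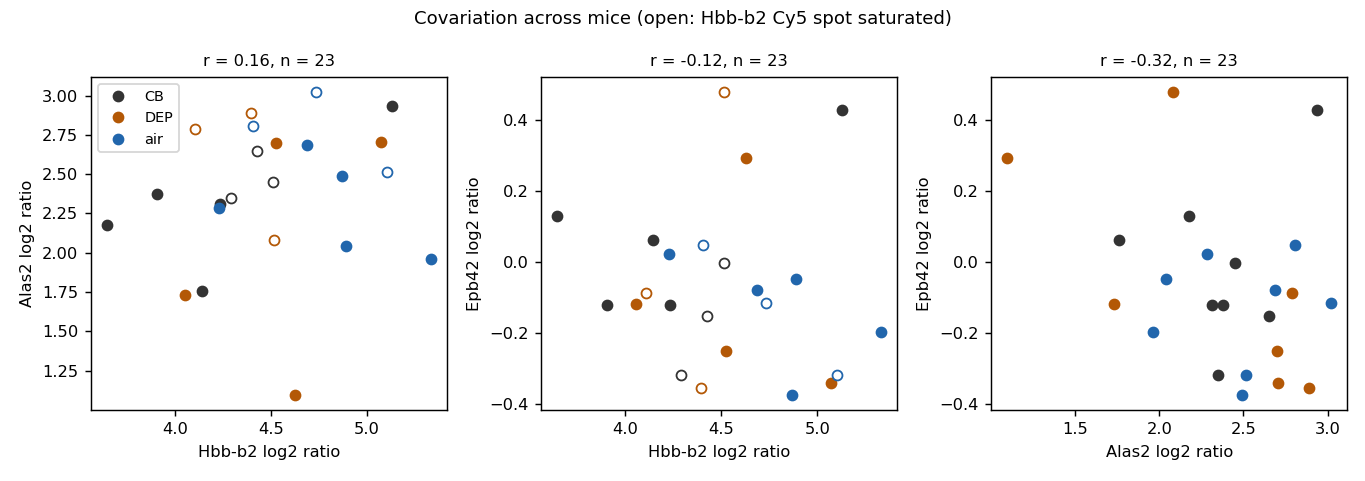
Log2 ratios of Hbb-b2, Alas2 and Epb42 against each other, 1 point per mouse (23 mice), coloured by group. Open points are mice whose Hbb-b2 Cy5 spot was saturated, and Pearson r is 0.16, -0.12 and -0.32 from left to right.

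In the liver channel, covariation of the globins could not be seen, since Hba-a1 was at the scanner's limit on every array. The reference channel holds no liver RNA, so its signals describe the arrays and cannot show covariation between livers. No r for other pairs of bright features is given beside them. Over 23 arrays the Cy3 signals of Hba-a1 and Hbb-b2, relative to the array median, had r of 0.72 (permutation p = 4e-05, adjusted 2e-04 over 5 relations) and rho of 0.74 (permutation p = 5e-05, adjusted 0.00025). In residuals from the group means r was 0.50, and without the 2 farthest arrays it was 0.62. Within groups it was 0.37 in CB mice, 0.16 in DEP mice and 0.69 in air mice, and within the second and last round it was 0.63 and 0.88. In the liver channel, Cy5 of Hbb-b2 was set against its own Cy3 over the 14 unsaturated arrays, with r of 0.24 (permutation p = 0.399, adjusted 0.580) and rho of 0.25 (permutation p = 0.392, adjusted 0.392), and without the 2 farthest arrays r was 0.18. These relations were chosen after the data were seen.

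The features most like Hbb-b2 in residuals from the group means over 23 mice, a description over arrays that share a reference and a normalization, held no erythroid gene. They were Bccip (r = 0.76), which binds BRCA2, Itih4 (0.74), a plasma protein of the acute phase, Abhd14b (0.73), Masp2 (0.73), a protease of the complement lectin pathway, Saa4 (0.71), a constitutive serum amyloid, Mip (0.70), a water channel of the lens, Rpl23 (0.70), a ribosomal protein, and Lcat (0.69), which esterifies plasma cholesterol. In Cy5 alone, where Hbb-b2 was capped on 9 arrays, their r with Hbb-b2 lay between -0.31 for Mip and 0.47 for Rpl23. The 8 were picked for the highest r in ratios, so a lower r in another measure says little about the channel. None of the 8 passed in either particle comparison, and neither did any feature (0% of 18688).

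The features most like Alas2 were named after the data were seen, because no Alas2 spot was saturated. First came Ctsh (r = 0.85), a lysosomal protease, Tcea3 (0.81), a transcription elongation factor, and Tmem38b (0.80), a channel of the endoplasmic reticulum. Next were Entpd5 (0.79), a nucleotidase of the same organelle, Mcat (0.78), a mitochondrial acyltransferase, Cyp4f39 (0.78), Ndfip2 (0.78) and Fbxl4 (0.77). The order rested in part on DEP mouse 55: without it Ctsh (0.83) and Tmem38b (0.82) stayed among the first 8, and the other 6 were Psmd8, Myorg, Abca6, Nags, Tmem203 and Cib1. In Cy5 alone r with Alas2 was 0.73 for Ctsh and 0.15 for Tcea3.

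Markers of tissue macrophages, which take up old red cells and keep their iron, followed Alas2 to an uneven degree. Of 9 such genes present on at least 50% of arrays, 3 had r above 0.5 with Alas2, as had 8.09% of 13215 features, and the median r was 0.41, against a median of 0.11 and a 5th to 95th percentile range of -0.43 to 0.55 over 13215 features. Clec4f, a lectin of Kupffer cells, had r of 0.72 (0.63 without DEP mouse 55), and Cd5l, a protein secreted by macrophages, had r of 0.67 (0.65 without that mouse). Slc40a1, the iron exporter ferroportin, had r of 0.60, which fell to 0.31 without DEP mouse 55, where its log2 ratio was 0.55 against 2.60 to 4.75 in the other 6 DEP mice. Cd163, the receptor of haptoglobin bound to haemoglobin, had r of 0.48 and Marco 0.41, while Adgre1, an adhesion receptor of macrophages, had 0.33, the metal transporter Slc11a1 0.12 and Spic, a factor of iron-handling macrophages, -0.10. The summed Cy5 signal of these 9 genes was 52.7 to 113 times the array median in CB mice, 38.9 to 188 times in DEP mice and 61.2 to 128 times in air mice.

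Erythroid genes followed Alas2 unevenly. Car1, the carbonic anhydrase of red cells, had r of 0.66 (0.65 without DEP mouse 55), Dmtn, the membrane skeleton protein dematin, 0.61 (0.59), and Xpo7, an exportin needed for nuclear condensation in red cell precursors, 0.58 (0.53). Slc4a1, which encodes band 3, had r of 0.41, Klf1 0.31 and Tmod1, a cap of short actin filaments, -0.62 (-0.45 without DEP mouse 55). Lmo2, of the transcription factor list, had -0.50 and Add2, of the membrane list, -0.47. The median r was 0.18 over 14 other erythroid genes, -0.10 over 7 genes of the red cell membrane and 0.39 over 7 genes of haem synthesis, of which 0 were above 0.5. Neutrophil genes had a median of 0.33 over 5 genes, with Csf3r at 0.66 (0.49 without DEP mouse 55), platelet genes 0.04 over 7 and lymphocyte genes -0.02 over 10. Of the 6 hepatocyte genes not always saturated, Ahsg was saturated on 22 arrays, Apoa1 on 20 and Cyp2e1 on 19, and no median is given for them.

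**Figure D5:**
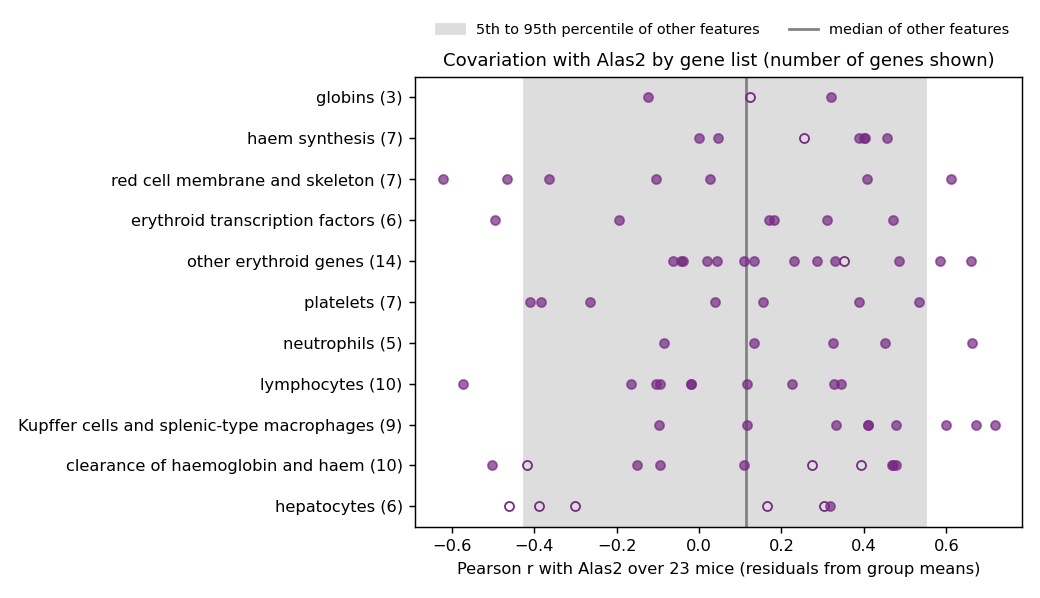
Pearson r with Alas2 (horizontal axis, 23 mice, residuals from group means) of the genes of each list, with the number of genes shown in brackets. Open points are genes with at least 1 saturated Cy5 spot, whose r rests in part on bounded values. The grey band is the 5th to 95th percentile of 13215 other features (-0.43 to 0.55) and the line their median (0.11). Clec4f (0.72), Cd5l (0.67), Csf3r (0.66), Car1 (0.66), Dmtn (0.61), Slc40a1 (0.60) and Xpo7 (0.58) lie right of the band. Tmod1 (-0.62), Cd3g (-0.57), Blvra (-0.50), Lmo2 (-0.50), Add2 (-0.47) and Apoa1 (-0.46) lie left of it.

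No other gene of the erythroid programme passed, and neither did any feature of the array (0% of 18688 in each comparison). The 5 lists were globins, haem synthesis, red cell membrane and skeleton, erythroid transcription factors and other erythroid genes. They held 52 measured genes, and 51 were not always saturated. Of these 51, 13, Epb42 among them, were flagged absent in Cy5 on more than 50% of arrays. Of the 52 genes, 48 were not among the 4 members, and 0 of the 48 passed in CB minus air, DEP minus air or CB minus DEP. In CB minus air 29 were below 0 and 19 above, with a median of -0.02, against 49.8% of all features below 0 and a median of 0.00. In DEP minus air 27 were below 0 and 21 above, with a median of -0.04, against 50.0% of all features below 0. At an unadjusted p under 0.05 there were 0 of the 48 in CB minus air, against 5.94% of all features. In DEP minus air there were 2 (4.17%, against 4.82% of all features), both above 0: the glucose transporter Slc2a1 (0.29) and Bpgm (0.23), which makes bisphosphoglycerate in red cells.

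Among the other globins, the embryonic genes Hba-x and Hbb-bh1 were flagged absent on 20 and 17 of 23 arrays, and Hbb-y and Hbq1a were present on 22. None was near the scanner's limit, and their CB minus air values were 0.01 for Hba-x, -0.13 for Hbb-bh1, -0.07 for Hbb-y and 0.09 for Hbq1a. In haem synthesis, Alas1, the enzyme that hepatocytes use, had a CB minus air of -0.14 (standard error 0.13, adjusted p = 0.917 by limma) and a DEP minus air of -0.10 (adjusted p = 0.997). The smallest unadjusted p of that list was that of Urod at -0.18 (adjusted p = 0.856). Add1, which encodes the membrane skeleton protein adducin, had a CB minus air of 0.34 (adjusted p = 0.860 by limma). The blood group gene Kel, absent on 13 arrays, had -0.19 (adjusted p = 0.860), and Car1 had -0.36 after CB and -0.37 after DEP (adjusted p of 0.860 and 0.997).

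Regulators and other genes of the lineage differed widely in brightness. Gata1, the master regulator of the lineage, was flagged absent on 12 arrays, Tfrc, the transferrin receptor, on 19, Hemgn on 21 and Ermap on 22, while Klf1 was absent on 3, Epor, the erythropoietin receptor, on 1, and Zfpm1, a cofactor of GATA1, on 0 with a Cy5 signal of 1060 to 8889. These genes were chosen from 2 lists after their values were seen. Epor had a ratio of 1.36 ± 0.54 in CB mice (SD, n = 8), 1.52 ± 0.31 in DEP mice (SD, n = 7) and 1.67 ± 0.25 in air mice (SD, n = 8), with CB minus air of -0.31 (adjusted p = 0.873 by limma).

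Blood cells other than red cells were measured as a guide to the blood held in the liver. Neutrophil genes were mostly dim, 5 of 12 being present on at least 50% of arrays, and Camp and Ngp were flagged absent on 23 and 22 arrays. Their summed Cy5 signal was 7.55 to 14.3 times the array median in CB mice, 7.94 to 11.3 times in DEP mice and 6.81 to 10.1 times in air mice. S100a9, a calcium-binding protein of neutrophils, had a ratio of 1.79 ± 0.98 in CB mice (SD, n = 8), 1.71 ± 0.87 in DEP mice (SD, n = 7) and 1.66 ± 0.56 in air mice (SD, n = 8). Platelet genes summed to 10.3 to 14.1 times the array median in CB mice, 9.99 to 24.8 times in DEP mice and 10.4 to 14.9 times in air mice, and without Pf4 to 8.86 to 12.1 times in CB mice, 9.19 to 12.5 times in DEP mice and 8.89 to 13.1 times in air mice. The platelet chemokine Pf4 had a log2 ratio of 0.47 in DEP mouse 55 and -0.15 in DEP mouse 56, against -3.51 to -1.65 in the other 21 mice. Lymphocyte genes summed to 7.89 to 21.1 times in CB mice, 8.87 to 18.0 times in DEP mice and 9.88 to 19.8 times in air mice. The globins that were not always saturated summed to 105 to 185 times in CB mice, 94.9 to 178 times in DEP mice and 86.1 to 190 times in air mice, but nearly all of this was Hbb-b2, capped on 9 arrays, and the highest values are lower bounds. Without Hbb-b2 they summed to 3.19 to 4.35 times in CB mice, 3.37 to 5.38 times in DEP mice and 2.08 to 5.83 times in air mice. Each sum was taken without subtraction of background, with spots flagged absent included. Epb42, flagged absent on 19 of 23 arrays, still stood at 0.368 to 0.736 times the array median. Sums of dim genes thus hold much background signal. The summed levels overlapped between groups in each of these lists, which for dim genes says little about blood content. In these lists 0 genes passed, as was so for all features (0% of 18688), and the part of blood content in the globin values was not tested.

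Genes that bind and break down free haemoglobin and haem were measured alongside. Hp, which encodes haptoglobin, and Trf, which encodes transferrin, were at the scanner's limit on every array, as Hba-a1 was, and Hpx, which encodes haemopexin, on 21 arrays, so Hp and Trf have no fold. Hmox1, the inducible haem oxygenase, had a CB minus air of 0.00 and a DEP minus air of -0.19 (adjusted p = 1.00 in both by limma). Hamp, the iron hormone hepcidin, was saturated on 7 arrays and had a CB minus air of -0.65 (standard error 0.14, adjusted p = 0.298) and a DEP minus air of -0.46 (adjusted p = 0.997). It was the smallest adjusted p of any list here and did not pass.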

How the data were processed

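Liver RNA (Cy5) and a universal reference RNA (Cy3) were hybridised to 1 array per mouse. The authors deposited median spot intensities of both channels on a linear scale, without subtraction of background, flags of spots not above negative control probes, and log2 ratios that the authors made by lowess within each array in R 2.4.1, which serve here as an alternative. Labels and methods differ in the age of the mice, the time after exposure and the RNA kit.

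Here log2 ratios were made from the deposited intensities by loess within each array (limma 3.58.1, R 4.3.3) over 18688 features with a listed gene, out of 22575. The 3887 without one were left out. All 23 mice were fitted in 1 model with lmFit and eBayes, and Benjamini-Hochberg adjusted p-values were read at 0.05. limma stood in place of the methods' MAANOVA test. A Cy5 spot at the scanner's maximum was taken as saturated, and a gene saturated on every array has no fold. Correlations have two-sided permutation p-values (100000 resamples, or exact below 10 mice). Pairs of arrays correlated at 0.968 at most, so none was a repeat. Named genes are the 4 members, the 8 features with the highest r with Hbb-b2, and defining genes of each list with up to 4 of the smallest p in CB minus air. Added after the data were seen were the features most like Alas2 and genes named for their r with it. The members and lists were chosen with earlier results of these data known. The tests were checked on simulated data. Mice were separate animals that shared exposure rounds, days and array sets, which were tried as blocks. The p-values set a difference or a correlation against the spread between mice. Where no block was fitted, that spread also holds any difference between rounds and array sets, which held unequal numbers of each group.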

Additional observations from a re-analysis of the deposited data

Results flagged for a closer look

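Of 30 sets of values checked, each a member's ratio, Cy5 or Cy3 signal in 1 group, 1 held a mouse set far apart from the others. For a single set, chance gives about 1 in 20, and the sets are not independent, as each ratio is built from Cy5 and Cy3. The Cy3 signal of Epb42 in CB mouse 445 was -1.62 on the log2 scale relative to the array median, against -1.15 to -0.76 in the other 7 CB mice. The same mouse had the highest ratio of its group for Hbb-b2 (5.13), Alas2 (2.93) and Epb42 (0.43). Relative to the array median, its Cy3 was the lowest of the CB mice for each of these genes. Its Cy5 lay inside the CB range: 145 times the array median for Hbb-b2 (range 101 to 181), 3.17 for Alas2 (2.44 to 4.59) and 0.505 for Epb42 (0.455 to 0.696). Its Alas2 Cy3 spot and its Epb42 spots in both channels were flagged absent.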

How the results depend on the processing

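No paired analysis was possible because the groups share no replicate numbers. Exposure round, exposure day and array set, which groups do share, were used as blocks in its place, and 0 features passed with each block in the 3 comparisons. Hba-a1 has no fold under any alternative, being saturated on every array, and Epb42 gave no value under the filter on dim features. Analyses over unsaturated arrays only and of the Cy3 signal were chosen after seeing the data. The number of features called in CB minus air was 0, and was 285 with median centring, 50 within the last round and 1 with array weights, and without 1 mouse it was 0 to 1 (1 without CB mouse 59 or air mouse 442). In CB minus DEP it was 100 within the last round. Median centring gave -0.75 for Hbb-b2 in CB minus air (adjusted p = 0.0290 by limma), -0.026 for Alas2 in CB minus DEP, and r of 0.43 for Hbb-b2 with Alas2 and -0.43 for Alas2 with Epb42. The Cy5 signal alone, capped for Hbb-b2 on 9 arrays, gave 0.12 and 0.14 for Hbb-b2 in CB and DEP minus air. It also gave r of 0.14 for Hbb-b2 with Epb42 (0.25 over unsaturated arrays) and -0.49 for Alas2 with Epb42. Within the second round DEP minus air was 0.055 for Hbb-b2, 0.16 for Alas2 and -0.30 for Epb42, CB minus air was -0.060 for Epb42, and CB minus DEP was -0.48 for Alas2. For Alas2, CB minus DEP was -0.15 within the last round (1 CB mouse) and -0.0082 with array weights. Without 1 mouse, Alas2 ranged from -0.29 to 0.0062 in DEP minus air (the highest without DEP mouse 55) and from -0.11 to 0.19 in CB minus DEP, and Epb42 from -0.010 to 0.13 in DEP minus air and from -0.020 to 0.13 in CB minus DEP. In residuals from group and array set means r was -0.11 for Hbb-b2 with Alas2 and 0.23 for Hbb-b2 with Epb42. Within air mice r was -0.42 for Hbb-b2 with Alas2 and 0.088 for Alas2 with Epb42, and within CB mice it was 0.43 for Hbb-b2 with Epb42 and 0.28 for Alas2 with Epb42. Hbb-b2 with Epb42 had r of 0.011 without the 2 farthest mice. Alas2 with Epb42 ranged from -0.52 (without CB mouse 445) to -0.16 (without DEP mouse 55) when 1 mouse was left out. The cause of these changes was not tested. Of 36 alternatives, 26 moved the value of Alas2 in CB minus air and 26 that of Hbb-b2 in CB minus DEP, and under these the direction held with an adjusted p above the threshold (-0.32 to -0.012 and -0.65 to -0.018). The other 10 could not or did not move it. The -0.65 came from the last round, which held 1 CB mouse.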
